A study of Mus musculus with 9 samples.

Results

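The collagen genes other than those of type IV were examined in whole lenses of E16.5 mouse embryos (E for embryonic day). They were taken as the protein-coding genes whose symbol is Col, a number, a and a number, leaving out *Col4a1* to *Col4a6*, which found 38 of the 55416 genes in the count tables. The libraries were made from 4 *Atf4* null and 5 wildtype embryos, and the comparison asks how the transcript levels of these collagens differ when the transcription factor ATF4 is absent. Positive fold changes stand for higher levels in the *Atf4* null lens. All comparisons were made in 2 ways, with all 9 libraries and without wildtype replicate 5, which stood apart from the other wildtype libraries.

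The *Atf4* null embryos were homozygous for the tm1Tow allele, a germline null mutation carried in every cell and not only in the lens, and the wildtype embryos were littermates from the same heterozygous intercrosses on a mixed C57Bl/6 and 129 background. Mice of 129 origin can carry a deletion in *Bfsp2*, a beaded filament gene of lens fibers, for which the colony was not typed, and *Bfsp2* stood at 1179 to 3253 CPM (counts scaled to a common library size) over the 9 libraries. Each library came from the single pair of lenses of 1 embryo, so the replicates are separate animals, and embryos of both sexes were used. In the wildtype group, title and count file of each of the 5 samples name different wildtype libraries. Replicates are numbered here by title, which leaves the order within that group uncertain but not the genotype.

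Collagens are proteins of the extracellular matrix in which several chains wind into a triple helix. The fibrillar collagens (types I, II, III, V, XI, XXIV and XXVII) build the fibrils of connective tissue, the fibril-associated collagens (types IX, XII, XIV, XVI, XIX, XX and XXII) sit on such fibrils, and other classes form beaded filaments, hexagonal networks, anchoring fibrils or stay in membranes. The lens itself is wrapped in a capsule, a thick basement membrane in which type IV collagen is the main collagen and in which the multiplexin type XVIII is also found. Types II and IX are known from cartilage and from the vitreous of the eye, whereas types I and III are products of fibroblasts and other mesenchymal cells.

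Gene counts summed to between 7440807 and 8696699 in the *Atf4* null and between 8409779 and 8906996 in the wildtype libraries. *Atf4* itself stood at 0.582 to 10.6 CPM in the null libraries and at 119 to 155 CPM in the wildtype libraries, which fits every genotype label. Summed over a list of 12 skeletal muscle genes, wildtype replicate 5 held 9867 CPM, the other wildtype libraries 20.3 to 40.5 CPM and the null libraries 32.3 to 125 CPM. That library also held 443 CPM of a list of 12 mesenchyme genes, compared with 200.4 to 238 CPM in the other wildtype libraries and 21.8 to 63.0 CPM in the null libraries. Without *Pdgfra*, a gene of the list that the lens epithelium also expresses and that was set aside after its values were seen, these sums were 185, 11.2 to 20.8 and 15.1 to 38.8 CPM, so that the order of null and wildtype rested on that gene. Of the defining lists of the lens itself, 7 of 9 fiber and 5 of 6 epithelium genes tested were lower in the null without wildtype replicate 5, compared with 4.96% of all genes tested. The sums were 17954 to 42353 CPM compared with 48762 to 53386 CPM, and 2204 to 2972 CPM compared with 3875 to 4411 CPM. Wildtype replicate 5, at 28373 CPM of the fiber list and 2592 CPM of the epithelium list, lay within the null range for both. In the same comparison 2 of 4 pigment cell genes tested were higher (*Pmel* and *Dct*) and none of the macrophage, vascular endothelium and surface ectoderm genes tested was called, whereas with all 9 libraries the single call among these 4 lists was *Egfl7*, a gene of vascular endothelium, which was lower in the null (log2 fold change -0.94, adjusted p = 0.0439). Of 6 blood genes tested the hemoglobin genes *Hba-a1* (log2 fold change -1.15, adjusted p = 0.0113) and *Hbb-bs* (-1.12, adjusted p = 0.0349) were lower without wildtype replicate 5, and the list summed to 182 to 254 CPM in the null and 231 to 740.3 CPM in wildtype replicates 1 to 4. In RNA from whole tissue, more cells of a type and more RNA per cell cannot be told apart.

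The most abundant of these collagens in wildtype replicates 1 to 4 was *Col9a1*, an alpha chain of the fibril-associated type IX, at 50.7 ± 11.6 FPKM (CPM per kilobase of exon, mean ± SD, n = 4). It was followed by *Col18a1*, the basement membrane multiplexin that contains endostatin, at 42.3 ± 8.44 FPKM. *Col2a1*, the single chain of fibrillar type II, stood at 19.6 ± 2.88 FPKM, *Col9a2* at 19.3 ± 4.45 FPKM and *Col5a1*, a chain of the fibril-nucleating type V, at 16.6 ± 0.66 FPKM. The intervals of 1 SD overlapped between *Col9a1* and *Col18a1* and between *Col2a1*, *Col9a2* and *Col5a1*, but not between these 2 groups. These 5 genes held the same 5 places, in the same order, in the *Atf4* null libraries.

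Further down, *Col15a1* stood at 13.5 ± 2.19 FPKM and *Col23a1* at 10.2 ± 2.71 FPKM in wildtype replicates 1 to 4, and every other member at or below the 4.21 FPKM of *Col6a3*. *Col1a1*, *Col3a1* and *Col1a2*, the chains of the connective tissue types I and III, stood at 2.88 ± 1.27, 1.98 ± 1.12 and 1.13 ± 0.31 FPKM and took places 12, 14 and 17. In the null libraries they stood at 19.0 ± 3.85, 12.4 ± 7.35 and 6.44 ± 2.74 FPKM and took places 6, 7 and 11. In wildtype replicate 5 they took places 1, 2 and 3, at 1005, 341 and 254 FPKM, while *Col9a1* was in place 11 at 34.5 FPKM.

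**Figure D1:**
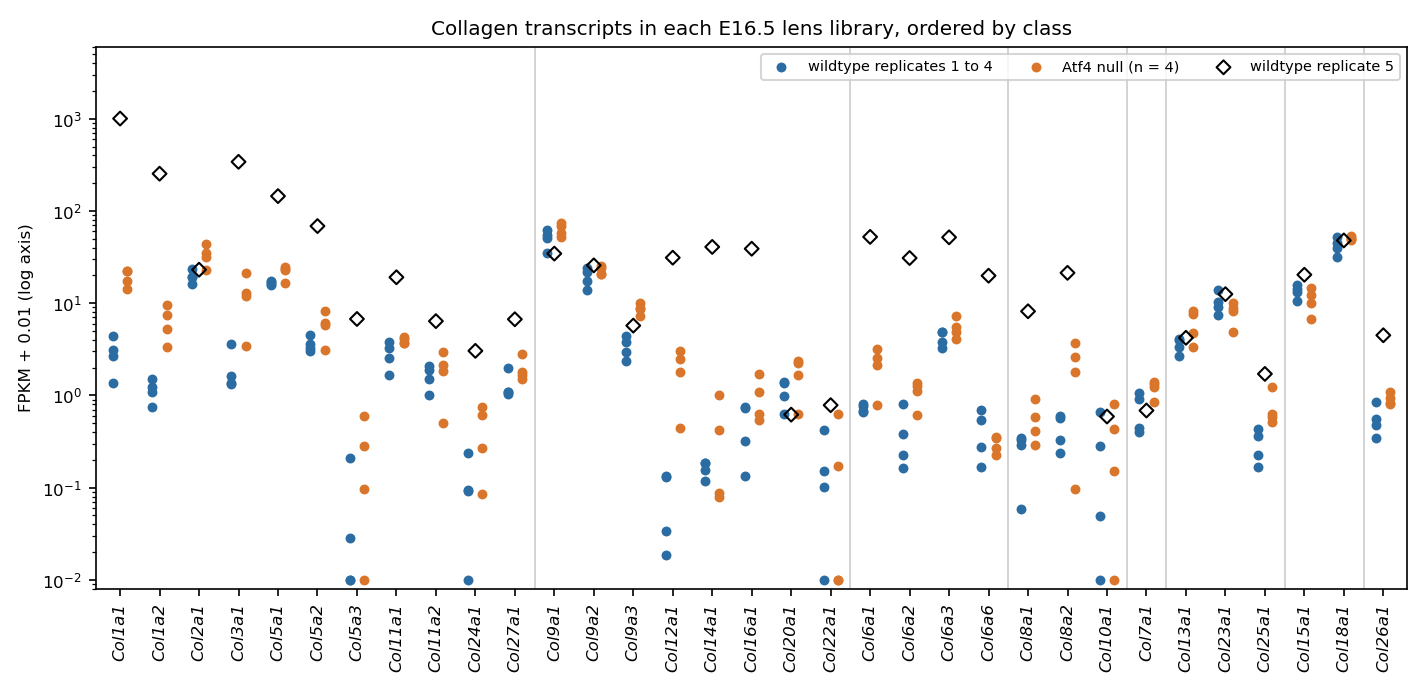
FPKM + 0.01 on a log axis for the 33 collagen genes that passed the count filter with all 9 libraries, grouped by class from fibrillar on the left to other on the right; each point is 1 library and the open diamond is wildtype replicate 5. Wildtype replicate 5 had the highest level of all 9 libraries for 24 of the 33 genes, *Col1a1* at 1005 FPKM being the highest, while its levels of *Col2a1*, *Col9a1* and *Col18a1* lie among those of the other libraries or just below them.

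Wildtype replicate 5 exceeded the mean of the other 4 wildtype libraries at least 2 times for 23 of the 33 tested collagens, with ratios from 2.42 for *Col10a1* to 449 for *Col12a1*. For the remaining 10 the ratio lay between 0.562 for *Col20a1* and 1.70 for *Col9a3*. These 10 were *Col2a1*, the 3 type IX genes, *Col7a1*, *Col13a1*, *Col15a1*, *Col18a1*, *Col20a1* and *Col23a1*. The excess of that library took in, among others, types I, III, V, VI, VIII, XI, XII, XIV and XVI, and left out the type II, IX and XVIII genes that were most abundant in the other lenses.

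With all 9 libraries, 33 of the 38 collagens passed the filter on low counts, and edgeR's quasi-likelihood test called 2 (6.06%) at an adjusted p below 0.05, compared with 5.90% of the 14903 genes tested. Both were higher in the *Atf4* null lens, *Col2a1* and *Col9a3*. Among all genes tested, 2.23% were called higher and 3.67% lower. Of the collagens 10 had a log2 fold change above 0, as did 50.1% of all genes tested, and 23 one below 0, with a median of -0.62, compared with 0.00072 over all genes tested. At an unadjusted p below 0.05 there were 8 collagens, 5 higher and 3 lower, and 19.6% of all genes tested passed that mark.

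Without wildtype replicate 5, 30 collagens passed the filter and 7 (23.3%) were called, compared with 8.33% of the 14493 genes tested. All 7 were higher in the *Atf4* null lens, where 3.37% of all genes were called higher and 4.96% lower, and they were *Col1a1*, *Col1a2*, *Col2a1*, *Col3a1*, *Col6a1*, *Col9a3* and *Col12a1*. Values above 0 were found for 27 of the 30 (90%), compared with 52.7% of all genes tested, with a median of 0.75 compared with 0.026 over all genes. At an unadjusted p below 0.05 there were 17 collagens, all of them higher, and 21.6% of all genes tested passed that mark. Of the 30 collagens tested both ways, 18 had a negative log2 fold change with all 9 libraries and a positive one without wildtype replicate 5. The 3 with values below 0 in the latter, *Col6a6*, *Col15a1* and *Col23a1*, were not called.

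**Figure D2:**
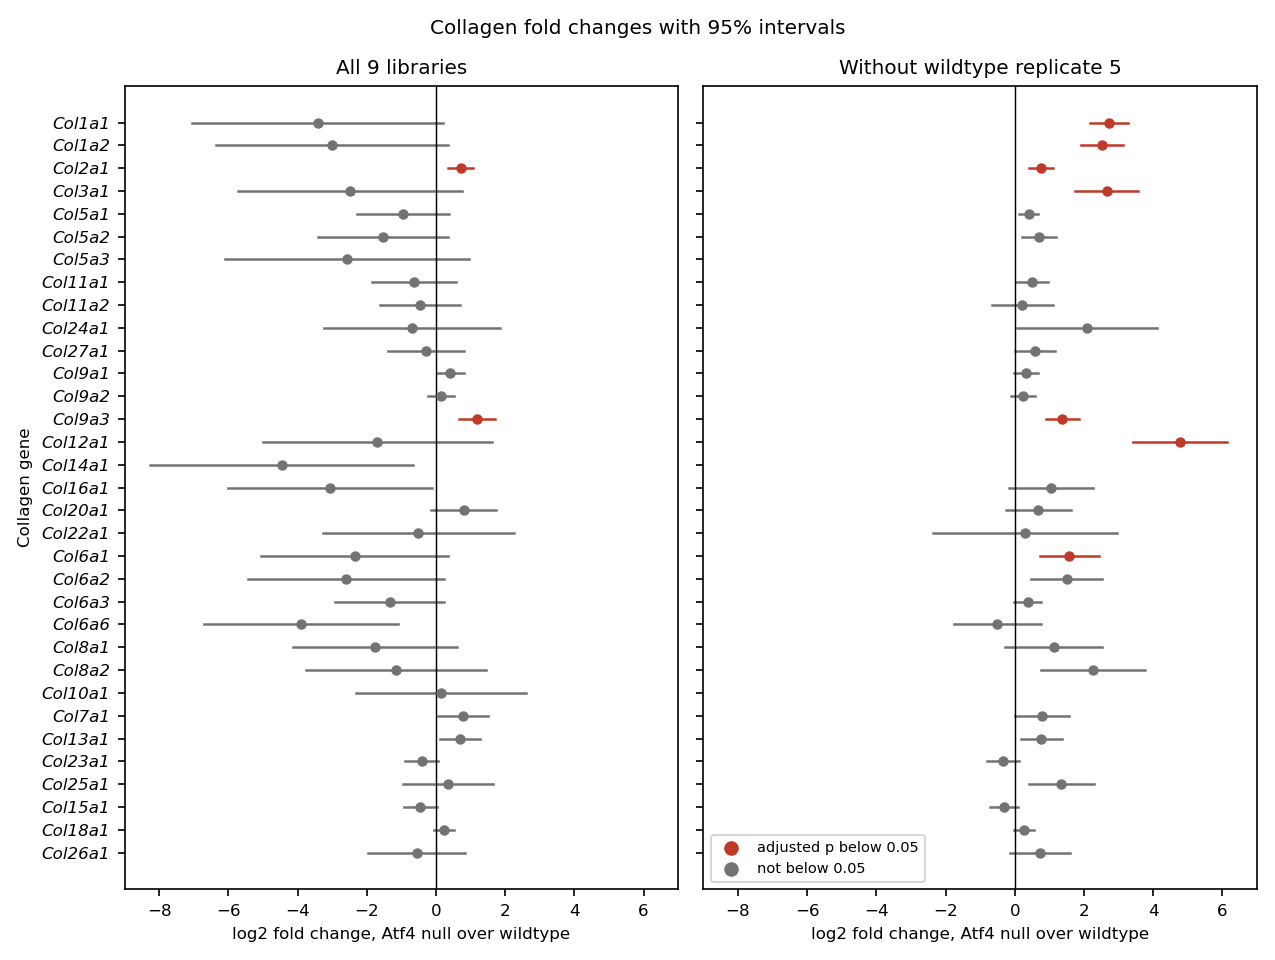
Log2 fold change of *Atf4* null over wildtype with its 95% interval for each tested collagen gene, with all 9 libraries on the left and without wildtype replicate 5 on the right; red marks an adjusted p below 0.05. The 2 red genes on the left, *Col2a1* and *Col9a3*, are red on the right too, and the intervals of *Col1a1*, *Col1a2*, *Col3a1* and *Col12a1* cross 0 on the left and lie above it on the right.

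The type I and III fibrillar genes were higher in the *Atf4* null lens once wildtype replicate 5 was set aside, by 5.72 to 6.61 times in mean CPM. *Col1a1*, which encodes the main chain of type I collagen (chr11:94827050-94843868, plus strand, GRCm39), stood at 145, 146, 93.6 and 116 CPM in *Atf4* null replicates 1 to 4 and at 8.99, 20.4, 17.3 and 29.1 CPM in wildtype replicates 1 to 4. Every null library lay above each of those wildtype libraries, and wildtype replicate 5 lay above them all at 6600.2 CPM. Without wildtype replicate 5 the log2 fold change was 2.73 ± 0.26 (SE, adjusted p = 6.94e-06), and with all 9 libraries -3.42 ± 1.68 (adjusted p = 0.289). The raw counts behind the wildtype values were 70, 165, 140 and 230.

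*Col1a2*, the partner chain of *Col1a1* in the type I helix (chr6:4504814-4541555, plus strand), stood at 95.2, 122, 66.2 and 42.4 CPM in the null libraries and at 9.24, 13.6, 18.8 and 15.4 CPM in wildtype replicates 1 to 4. Again the groups did not overlap, and wildtype replicate 5 was at 3209 CPM. Leaving that library out gave a log2 fold change of 2.52 ± 0.29 (adjusted p = 3.69e-05), and keeping it gave -3.00 (adjusted p = 0.316). The FPKM of *Col1a1* was 2.30 to 5.26 times that of *Col1a2* in the null libraries, 1.77 to 3.63 times in wildtype replicates 1 to 4 and 3.96 times in wildtype replicate 5.

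*Col3a1*, the single chain of type III collagen (chr1:45350698-45395840, plus strand), stood at 133, 219.8, 123 and 34.9 CPM in the null libraries and at 13.9, 16.4, 13.5 and 37.5 CPM in wildtype replicates 1 to 4. Here 3 of the 4 null libraries lay above all 4 wildtype libraries and *Atf4* null replicate 4 lay below wildtype replicate 4. Set against these 4 alone, with wildtype replicate 5 at 3507 CPM left out, the log2 fold change was 2.65 ± 0.43 (adjusted p = 0.000792).

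*Col12a1*, a fibril-associated collagen of tendon and other dense connective tissue (chr9:79506268-79626135, minus strand), had the largest log2 fold change among the collagens called without wildtype replicate 5. It stood at 46.7, 37.7, 27.1 and 6.55 CPM in the null libraries and at 0.128, 0.370, 1.85 and 1.90 CPM in wildtype replicates 1 to 4, which rest on 1, 3, 15 and 15 counts. The groups did not overlap, and the log2 fold change was 4.78 ± 0.64 (adjusted p = 0.000143). With so few wildtype counts, *Col12a1* passed the count filter of this comparison through the null libraries, where it was high. For each 100 counts of *Col1a1* there were 25.8 to 32.2 counts of *Col12a1* in *Atf4* null replicates 1 to 3, 5.67 in *Atf4* null replicate 4, 1.43 to 10.7 in wildtype replicates 1 to 4 and 7.22 in wildtype replicate 5, which was at 477 CPM. Its log2 fold change over all 9 libraries was -1.70 (adjusted p = 0.618).

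*Col6a1*, a chain of the beaded filament type VI (chr10:76543440-76562283, minus strand), stood at 18.6, 14.8, 12.5 and 4.51 CPM in the null and at 3.85, 4.69, 4.45 and 3.92 CPM in wildtype replicates 1 to 4. *Atf4* null replicate 4 lay within the wildtype range and the others above it. In the comparison without wildtype replicate 5, which was at 306 CPM, the log2 fold change was 1.58 ± 0.41 (adjusted p = 0.0228). This call was lost when any single library was left out other than *Atf4* null replicate 4, with adjusted p up to 0.0717 and log2 fold changes of 1.33 to 1.63. Without *Atf4* null replicate 4 the log2 fold change was 1.85.

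Genes of mesenchyme were given beside these 5 collagens, since types I and III are typical of such cells. Of the list of 12 mesenchyme and fibroblast genes 6 were tested without wildtype replicate 5, of which 1 was higher and 1 was lower in the null. The lower gene was *Pdgfra*, which the lens epithelium also expresses (log2 fold change -3.28, adjusted p = 1.52e-06). The other 4 tested genes had adjusted p above 0.05, and *Tcf21* was at 0 in all 9 libraries. *Dpt* was at 0 in wildtype replicates 1 to 4 and in all null libraries except *Atf4* null replicate 4, at 1.31 CPM. Summed over all 12 genes, the list stood lower in the null, at 49.6, 63.0, 50.3 and 21.8 CPM in *Atf4* null replicates 1 to 4 beside 200.4 to 238 CPM in the first 4 wildtype libraries. Summed without *Pdgfra*, a choice made after its values were seen, it stood at 23.4, 38.8, 26.5 and 15.1 CPM in *Atf4* null replicates 1 to 4, beside 11.2 to 20.8 CPM in the first 4 wildtype libraries. *Atf4* null replicate 4, the lowest null library by either sum, was also the lowest null library for *Col1a2*, *Col3a1*, *Col6a1* and *Col12a1*. *Col1a1* was lowest in *Atf4* null replicate 3, at 93.6 CPM. Being lowest in *Atf4* null replicate 4 was not particular to the mesenchyme list. The skeletal muscle and vascular endothelium sums were lowest there too, at 32.3 and 170 CPM, while the lens fiber sum was highest there, at 42353 CPM. What part of the collagen differences goes with mesenchyme transcripts was not tested.

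The 12 skeletal muscle genes summed to 125, 42.6, 48.1 and 32.3 CPM in *Atf4* null replicates 1 to 4 and to 20.3 to 40.5 CPM in the first 4 wildtype libraries, and 0 of the 6 tested were called. In a list of 10 pericyte and smooth muscle genes, *Acta2* (log2 fold change 5.12, adjusted p = 3.92e-07) and *Tagln* (2.59, adjusted p = 0.000546), which encode contractile proteins that myofibroblasts also make, were higher and *Rgs5* and *Abcc9* lower without wildtype replicate 5, of 9 tested. *Acta2* stood at 79.7, 112, 162 and 243 CPM in the null libraries and at 2.44 to 6.18 CPM in wildtype replicates 1 to 4. *Atf4* null replicate 4, the highest for *Acta2*, was not the highest null library for any of the 5 collagens above. What part of the collagen differences goes with *Acta2* and *Tagln* was not tested. Among 6 bone genes none of the 3 tested without wildtype replicate 5 was called. *Spp1*, which encodes osteopontin, stood at 4.28 to 10.6 CPM in the null and 0 to 3.34 CPM in wildtype replicates 1 to 4, which do not overlap (log2 fold change 2.31, adjusted p = 0.14), *Runx2* had a log2 fold change of 1.13 and *Alpl* one of -0.68, and *Bglap* was at 0 in all 9 libraries.

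**Figure D3:**
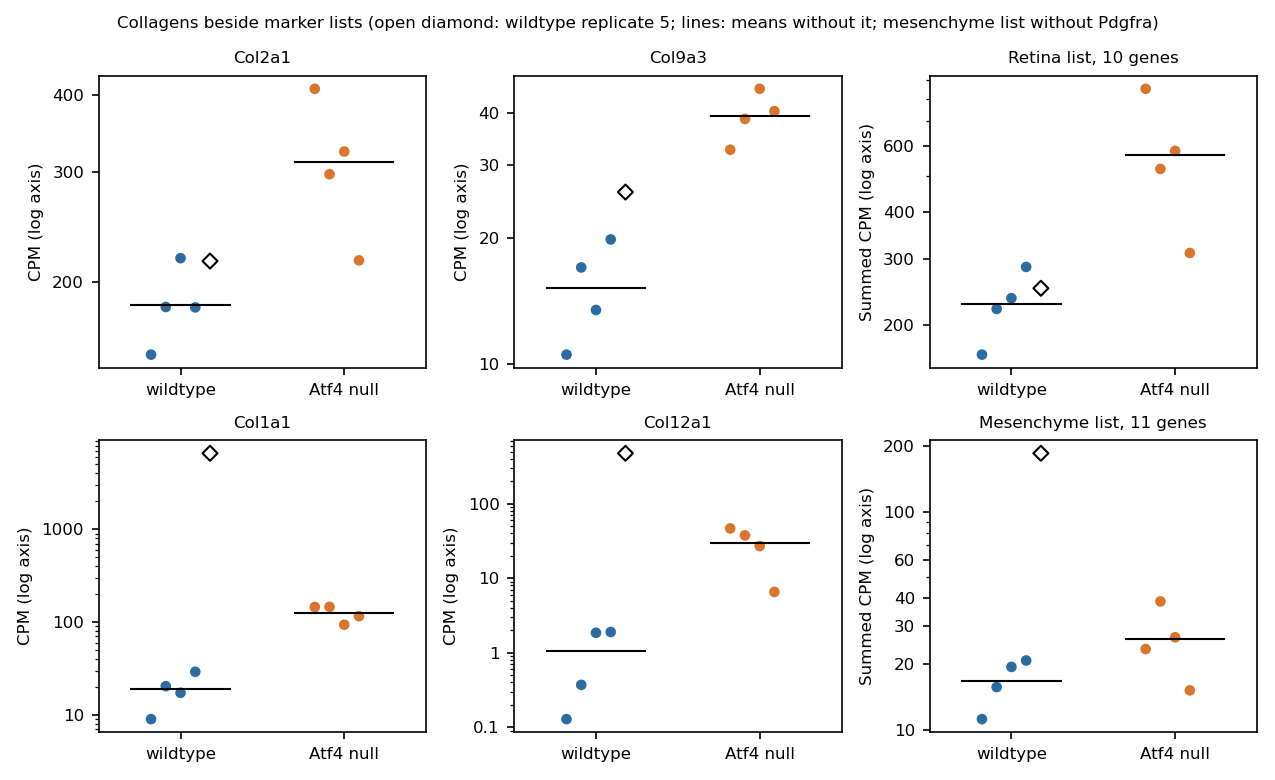
CPM of 4 collagen genes and summed CPM of 2 marker lists (the mesenchyme list without *Pdgfra*) on log axes, each point being 1 library (blue, wildtype replicates 1 to 4; orange, *Atf4* null; open diamond, wildtype replicate 5), with lines at the group means without that library. *Col9a3* is above every wildtype library in all 4 null libraries, *Col1a1* and *Col12a1* are so only with wildtype replicate 5 set aside, and *Col2a1* and the retina list are both lowest in *Atf4* null replicate 4 among the null libraries.

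*Col2a1* (chr15:97873483-97902689, minus strand) was called in both comparisons. It stood at 409, 298, 324 and 216 CPM in *Atf4* null replicates 1 to 4, at 152, 182, 218 and 182 CPM in wildtype replicates 1 to 4 and at 216 CPM in wildtype replicate 5. The first 3 null libraries lay above every wildtype library and the fourth was level with the 2 highest wildtype libraries. With scaling factors estimated without wildtype replicate 5 the lowest null value was 218.2 CPM and the highest wildtype value 217.2 CPM, so that the groups were just separate. The log2 fold change was 0.72 ± 0.17 with all 9 libraries (adjusted p = 0.0233) and 0.77 ± 0.16 without wildtype replicate 5 (adjusted p = 0.00755). In the comparison of all 9 libraries this call was lost on leaving out any 1 of 6 libraries, with adjusted p from 0.0566 to 0.0704 and log2 fold changes of 0.56 to 0.73.

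*Col9a3*, the third chain of type IX collagen (chr2:180239583-180264063, plus strand), was the only collagen for which every null library lay above every wildtype library, among the 33 tested with all 9; this held for 4.65% of all genes tested, and 5.58% lay wholly below, as no collagen did. It stood at 32.6, 38.6, 45.6 and 40.3 CPM in the null libraries, at 10.5, 17.0, 13.5 and 19.9 CPM in wildtype replicates 1 to 4 and at 25.8 CPM in wildtype replicate 5. The log2 fold change was 1.18 ± 0.24 (adjusted p = 0.0107) with all 9 libraries and 1.37 ± 0.22 (adjusted p = 0.000882) without wildtype replicate 5, and it passed under each of the 18 and 17 alternatives tried. *Tcfl5* lies on the opposite strand and overlaps it, and held 81 counts over all 9 libraries, compared with 277 to 416 counts of *Col9a3* in each null library.

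The other type IX genes did not pass the test. *Col9a1* stood at 294, 352, 373 and 262 CPM in the null libraries and at 175, 260.4, 313, 279 and 175 CPM in the wildtype libraries, which overlap (log2 fold change 0.41 ± 0.18, adjusted p = 0.232, with all 9). *Col9a2* stood at 63.8, 64.7, 78.2 and 74.5 CPM in the null and at 43.0, 74.3, 66.9, 54.6 and 79.7 CPM in the wildtype (0.14 ± 0.17, adjusted p = 0.731). The type IX chains were found at unequal levels. Per kilobase of exon, *Col9a3* stood at 0.123 to 0.172 of *Col9a1* in the null libraries, 0.0482 to 0.0796 in wildtype replicates 1 to 4 and 0.165 in wildtype replicate 5, while *Col9a2* stood at 0.301 to 0.465 of *Col9a1* in the null, 0.319 to 0.467 in wildtype replicates 1 to 4 and 0.745 in wildtype replicate 5. In wildtype replicate 5 the *Col9a3* ratio thus lay within the null range, and the *Col9a2* ratio lay above every other library.

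The list of 10 neural retina genes moved in the same direction. Of them 7 were higher in the null lens without wildtype replicate 5 and 5 with all 9 libraries, compared with 3.37% and 2.23% of all genes tested, and none was at 0. Their summed level was 854, 522, 583 and 311 CPM in *Atf4* null replicates 1 to 4, 167 to 286 CPM in wildtype replicates 1 to 4 and 251 CPM in wildtype replicate 5. *Col2a1* and this sum had the same order over the 4 null libraries, replicate 1 being the highest and replicate 4 the lowest, whereas *Col9a3* was lowest in replicate 1. *Sox9*, a known activator of *Col2a1* in cartilage that retina also expresses, stood at 115, 81.5, 64.4 and 36.1 CPM in the null libraries, with 26.7 to 57.3 CPM in the first 4 wildtype libraries (log2 fold change 0.73, adjusted p = 0.137). Of the 8 cartilage genes it was the only one tested, and *Acan*, *Matn1* and *Ucma* were at 0 in all 4 null libraries and in wildtype replicates 1 to 4. Whether retinal transcripts account for any of the *Col2a1* or *Col9a3* difference was not tested.

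*Col18a1* and *Col5a1* were abundant and did not pass the test. *Col18a1* stood at 341, 364, 380.2 and 349 CPM in the null libraries and at 225, 283, 366, 319 and 338.5 CPM in the wildtype libraries. The groups overlapped, and the log2 fold change was 0.23 with all 9 and 0.27 (95% interval -0.02 to 0.56, adjusted p = 0.277) without wildtype replicate 5. *Slc19a1* overlaps it on the opposite strand, with 822 counts over all libraries. *Col5a1* stood at 145, 205, 214 and 198 CPM in the null, at 141, 151, 147 and 139 CPM in wildtype replicates 1 to 4 and at 1265 CPM in wildtype replicate 5. Its log2 fold change without that library was 0.40 (95% interval 0.12 to 0.68) and its adjusted p was 0.0723, which came below 0.05 under 5 of 17 alternatives.

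Most other members were low. Among the fibrillar genes all 10 tested without wildtype replicate 5 had positive log2 fold changes, with a median of 0.73 and 4 called. Over all genes tested there, 52.7% were positive and 8.33% called. With all 9 libraries only *Col2a1* of 11 was positive, compared with 50.1% of all genes tested, and the median was -0.95. *Col5a2* reached 0.69 (adjusted p = 0.0797), *Col24a1* 2.08 (adjusted p = 0.209), and *Col11a1* 0.49 (adjusted p = 0.192). The fibril-associated genes were all positive without wildtype replicate 5, 7 of 7 beside 52.7% of all genes tested. They ranged from 0.24 for *Col9a2* to 4.78 for *Col12a1*, and 2 were called, beside 8.33% of all genes tested. Over all 9 libraries they ranged from -4.46 for *Col14a1* (adjusted p = 0.175) to 1.18 for *Col9a3*.

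Of the 4 type VI genes tested, *Col6a2* followed *Col6a1* with a log2 fold change of 1.5 (adjusted p = 0.0668) without wildtype replicate 5, *Col6a3* stood at 0.37 (adjusted p = 0.268) and *Col6a6* at -0.50 (adjusted p = 0.693). Of these *Col6a3* was the most abundant per kilobase, at 4.21 ± 0.80 FPKM in wildtype replicates 1 to 4 and 5.43 ± 1.33 FPKM in the null libraries. *Col6a6* overlaps *Pik3r4* on the opposite strand, which held 2954 counts. *Col8a2*, a network-forming collagen of the corneal basement membrane, reached 2.27 ± 0.70 (adjusted p = 0.0584), with 18.5, 13.2, 8.99 and 0.437 CPM in the null and 1.14 to 2.95 CPM in wildtype replicates 1 to 4. In *Atf4* null replicate 4 it was therefore lower than in any of these 4 wildtype libraries.

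*Col7a1*, the anchoring fibril gene, stood at 8.74 to 14.4 CPM in the null and at 4.05 to 10.7 CPM in the wildtype libraries (0.78 both with all 9 libraries, adjusted p = 0.217, and without wildtype replicate 5, adjusted p = 0.231). Among the transmembrane collagens *Col13a1* reached 0.76 (adjusted p = 0.111) and *Col25a1* 1.35 (adjusted p = 0.0756) without wildtype replicate 5. *Col25a1* was the only uncalled collagen of the 6 for which every null library lay above every remaining wildtype library, which held for 6.73% of all genes tested, while no collagen lay wholly below, as 8.56% did; the other 5 were *Col1a1*, *Col1a2*, *Col2a1*, *Col9a3* and *Col12a1*. For *Col15a1*, the multiplexin related to *Col18a1*, the log2 fold change was -0.31 (adjusted p = 0.397), and for *Col23a1* -0.35 (adjusted p = 0.397).

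The 5 members that were tested in neither comparison were *Col6a4*, *Col6a5*, *Col17a1*, *Col19a1* and *Col28a1*, each with at least 1 count in some library and at most 0.146 FPKM on average in either the null libraries or wildtype replicates 1 to 4. *Col5a3*, *Col10a1* and *Col14a1* passed the filter only with all 9 libraries. *Col14a1*, a collagen of fibroblasts, held 0.480 to 6.99 CPM in the null libraries and 286 CPM in wildtype replicate 5, with 0.759 to 1.24 CPM in the other wildtype libraries.

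As a share of all gene counts, the 38 collagens took 0.251, 0.256, 0.233 and 0.157% in *Atf4* null replicates 1 to 4 and 0.101, 0.132, 0.152 and 0.136% in wildtype replicates 1 to 4. The null shares thus lay above the wildtype ones, narrowly so for *Atf4* null replicate 4 (95% exact binomial interval 0.154 to 0.160%) beside wildtype replicate 3 (0.150 to 0.155%). Wildtype replicate 5 held 2.06%. *Col1a1*, *Col1a2* and *Col3a1* together made up 17.2, 20.2, 12.9 and 11.3% of the collagen counts in the null libraries, 2.94, 3.62, 3.06 and 5.68% in wildtype replicates 1 to 4 and 67.8% in wildtype replicate 5. The share of *Col2a1*, *Col9a1* and *Col18a1* was 41.9 to 49.0% in the null libraries, 50.7 to 55.5% in wildtype replicates 1 to 4 and 3.71% in wildtype replicate 5. Type IV collagen, for comparison, took 0.427 to 0.575% of gene counts in the null libraries, 0.683 to 0.752% in wildtype replicates 1 to 4 and 0.576% in wildtype replicate 5, and so lay on the other side. The binomial intervals cover counting error only and not the spread between embryos. They are too narrow even for counting error where reads are PCR copies, which are not separate molecules.

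**Figure D4:**
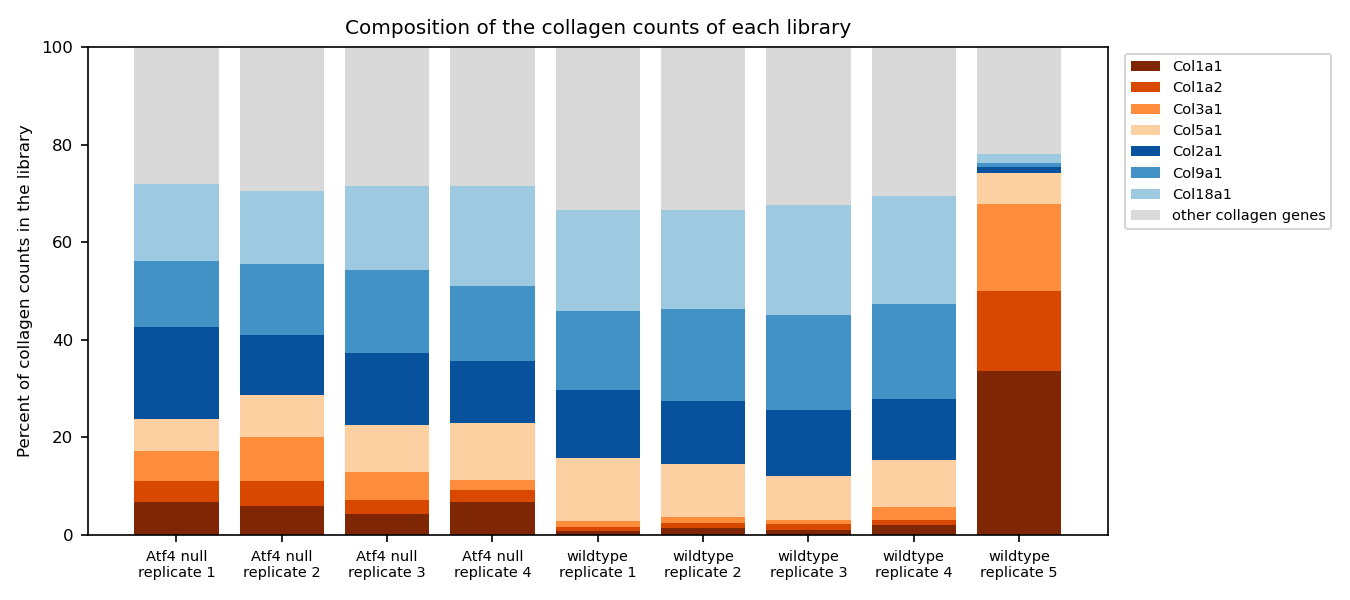
Percent of the counts of the 38 collagen genes taken by 7 of them and by the other collagens together, 1 stacked bar for each library. *Col1a1*, *Col1a2* and *Col3a1* at the foot of the bars reach 11.3 to 20.2% in the 4 null libraries, 2.94 to 5.68% in wildtype replicates 1 to 4 and 67.8% in wildtype replicate 5.

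Collagen chains are hydroxylated and folded in the endoplasmic reticulum before they are secreted, trimmed and crosslinked. Of 19 genes for modification and folding 4 were lower and 0 higher in the *Atf4* null lens without wildtype replicate 5, with a median log2 fold change of -0.31 compared with 0.026 over all genes. Of all genes tested 4.96% were called lower and 3.37% higher. *P4ha1*, a catalytic subunit of prolyl 4-hydroxylase, stood at 158, 231, 237 and 190.0 CPM in the null libraries and at 433, 377, 466, 468 and 325 CPM in the wildtype libraries, with no overlap. It fell by 1.02 on the log2 scale with all 9 libraries (adjusted p = 0.00157) and by 1.09 without wildtype replicate 5 (adjusted p = 0.000101). *P3h2*, a prolyl 3-hydroxylase (-1.36, adjusted p = 0.0013), *Plod1*, a lysyl hydroxylase (-0.66, adjusted p = 0.0255), and *Ppib*, the prolyl isomerase cyclophilin B (-0.42, adjusted p = 0.04), were also lower without that library. In the fit of all 9 libraries *P4ha3* and *Mia3* joined these 4, named after their values were seen, with adjusted p of 0.048 and 0.0481. *Serpinh1*, the collagen chaperone HSP47, stood at -0.14 (adjusted p = 0.522).

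Of 13 genes for procollagen processing and crosslinking 9 were tested and 1 was called, *Loxl1*, a lysyl oxidase-like enzyme known for elastic fibers. It stood at 49.8, 43.3, 57.2 and 50.4 CPM in the null libraries and at 152, 131, 132, 118 and 149 CPM in the wildtype libraries. The groups were far apart, wildtype replicate 5 being level with the other wildtype libraries, and *Loxl1* fell by 1.44 on the log2 scale with all 9 libraries (adjusted p = 2.96e-05) and by 1.40 without wildtype replicate 5 (adjusted p = 5.31e-06). Of 8 collagen receptors *Mrc2*, an endocytic receptor for collagen, was higher (0.98, adjusted p = 0.0232) and *Itga2*, an integrin subunit that binds collagen, lower (-0.78, adjusted p = 0.0266) without wildtype replicate 5. None of the 8 was called with all 9 libraries.

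Of 12 genes for collagen breakdown 7 were tested, and the proteases *Mmp2* (1.06, adjusted p = 0.00502) and *Mmp14* (0.69, adjusted p = 0.048) were higher without wildtype replicate 5, while 0 were called with all 9, where the log2 fold change was -0.56 for *Mmp2* and 0.028 for *Mmp14*. *Mmp2* stood at 40.6, 59.3, 54.3 and 32.6 CPM in the null and at 16.7, 24.9, 25.4 and 22.4 CPM in wildtype replicates 1 to 4, with no overlap, and at 255 CPM in wildtype replicate 5. Of 17 collagen-binding matrix genes 16 were tested, and 4 were higher and 1 lower without wildtype replicate 5, compared with 3.37% and 4.96% of all genes tested. The small proteoglycan *Lum* stood at 5.28, 17.0, 8.22 and 2.91 CPM in the null, with 3 counts in all over wildtype replicates 1 to 4 (ratio 89.7, 95% exact counting interval 30.4 to 438, adjusted p = 0.000255). That interval covers counting error only and not the spread between libraries. *Dcn*, another small proteoglycan, stood at 9.97, 14.9, 9.21 and 1.31 CPM in the null and at 0 to 0.618 CPM in wildtype replicates 1 to 4, from 7 counts in all (log2 fold change 5.24, adjusted p = 0.00109). With so few wildtype counts, *Lum* and *Dcn* passed the count filter of this comparison through the null libraries, where they were high. *Postn* (2.00, adjusted p = 0.00711) and *Prelp* (1.70, adjusted p = 0.0232) were higher and *Sparc*, a collagen-binding glycoprotein, lower (-0.54, adjusted p = 0.011). *Prelp* and *Sparc* were called in the same directions with all 9 libraries, and *Lum*, *Dcn* and *Postn* were not, wildtype replicate 5 holding 106, 185 and 564 CPM of them.

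**Figure D5:**
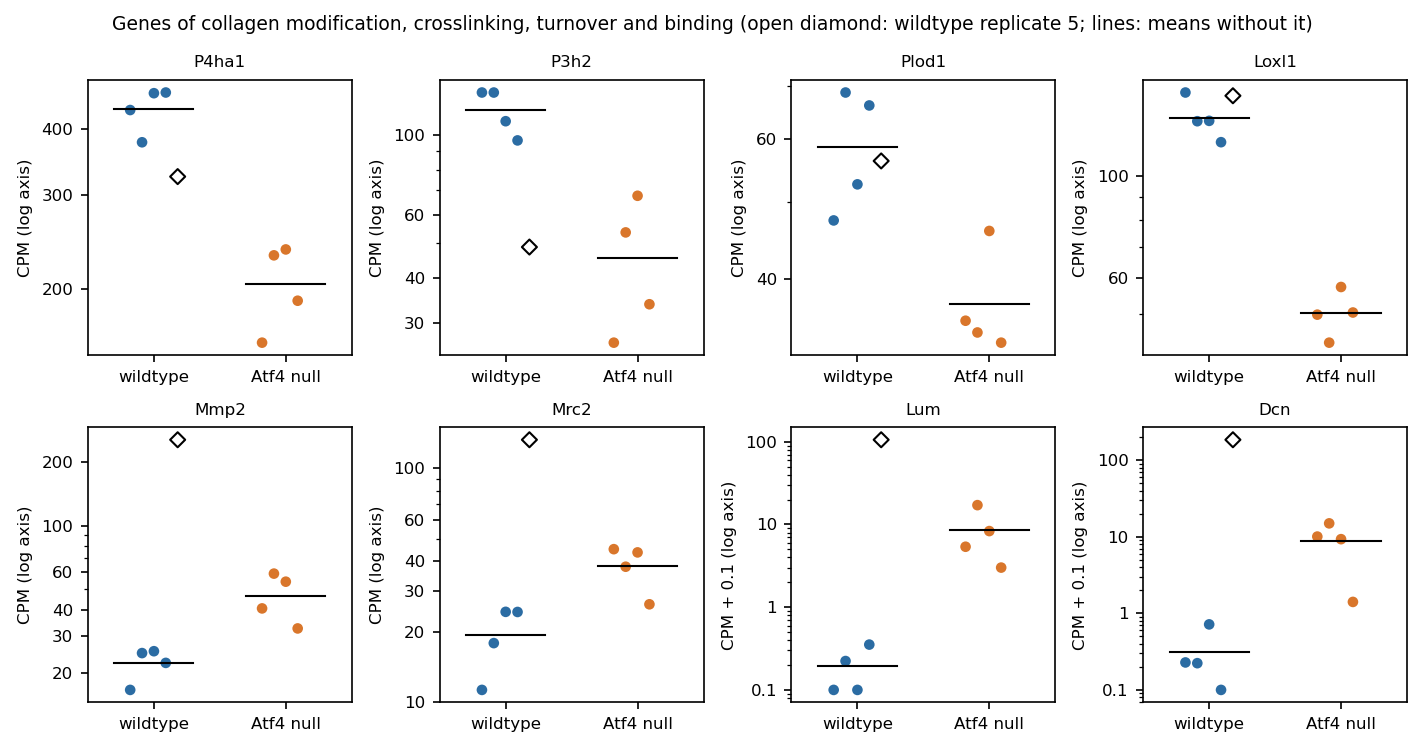
CPM on log axes (CPM + 0.1 for *Lum* and *Dcn*) of 8 genes for collagen modification, crosslinking, turnover and binding, each point being 1 library and the open diamond wildtype replicate 5, with lines at the group means without it. *P4ha1* and *Loxl1* are below every wildtype library in all 4 null libraries, while *Mmp2*, *Mrc2*, *Lum* and *Dcn* are above wildtype replicates 1 to 4 and below wildtype replicate 5.

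The sequence before the transcription start is shown for 4 of the called genes, *Col1a1* and *Col1a2*, whose chains share 1 helix and which were higher without wildtype replicate 5, and *Col2a1* and *Col9a3*, which were called with all 9 libraries too. Each is the 250 bases before the annotated start of the main transcript in GRCm39, read 5′ to 3′ on the strand of the gene, with matches to the searched motifs on either strand in capitals: chr11:94826800-94827049, chr6:4505243-4505492, chr15:97902690-97902939 and chr2:180239765-180240014 in the order shown.
Col1a1: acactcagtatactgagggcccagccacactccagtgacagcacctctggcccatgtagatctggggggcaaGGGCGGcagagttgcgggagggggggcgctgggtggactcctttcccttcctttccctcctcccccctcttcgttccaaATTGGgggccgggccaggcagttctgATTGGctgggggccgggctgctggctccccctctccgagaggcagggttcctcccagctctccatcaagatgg
Col1a2: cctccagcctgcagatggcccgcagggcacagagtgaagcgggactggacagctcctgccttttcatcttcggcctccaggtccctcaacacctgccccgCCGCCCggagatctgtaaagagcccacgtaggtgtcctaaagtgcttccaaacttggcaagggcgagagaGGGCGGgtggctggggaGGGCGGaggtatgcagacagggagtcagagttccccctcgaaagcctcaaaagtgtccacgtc
Col2a1: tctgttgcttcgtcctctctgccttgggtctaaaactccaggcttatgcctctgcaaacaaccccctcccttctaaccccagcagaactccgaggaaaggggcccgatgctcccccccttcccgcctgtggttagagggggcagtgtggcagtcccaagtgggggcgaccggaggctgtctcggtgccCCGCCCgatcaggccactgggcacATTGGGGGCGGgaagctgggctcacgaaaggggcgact
Col9a3: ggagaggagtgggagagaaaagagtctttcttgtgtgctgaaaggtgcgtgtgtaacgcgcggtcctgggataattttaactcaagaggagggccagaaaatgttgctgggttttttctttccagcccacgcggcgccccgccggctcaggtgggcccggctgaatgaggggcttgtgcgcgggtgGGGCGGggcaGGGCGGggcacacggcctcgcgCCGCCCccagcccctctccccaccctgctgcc

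The motifs searched on both strands were TGATGCAA, the composite element bound by ATF4 with C/EBP partners, TGACGTCA, the cyclic AMP response element, along with the letters CCAAT, the letters TATAAA and the letters GGGCGG, known as a GC box. Neither TGATGCAA nor TGACGTCA was found before any of the 38 collagen genes, and they were present in 0.892% and 1.69% of 21627 such windows over all protein-coding genes. CCAAT was in 12 of 38 (31.6%, compared with 36.5% of all windows), TATAAA in 7 (18.4%, compared with 11.9%) and GGGCGG in 19 (50%, compared with 36.4%). In the sequences shown, the *Col1a1* window held 2 CCAAT matches and 1 GC box, that of *Col1a2* and that of *Col9a3* each held 3 GC boxes, and in that of *Col2a1* a CCAAT match is directly followed by a GC box in 1 run of capitals, with a further GC box upstream. Absence of these letters from a window says nothing of elements elsewhere.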

How the data were processed

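Lens RNA was converted to stranded total RNA libraries and sequenced by the study. The deposited values are raw counts per Ensembl gene made by the authors, who trimmed reads with Trim Galore, used HISAT2 to remove ribosomal reads, mapped what was left to GRCm39 and ran HTSeq; the strand setting of the counting is not given in the sources used here. Entries that name no gene, 44.6 to 47.7% of the counted reads per library, were left out. Genes were joined by identifier to the GENCODE annotation of GRCm39, which gave a symbol for 54749 of 55416. Counts were tested in R 4.3.3 with edgeR 4.0.16 (filterByExpr, TMM factors, glmQLFit and glmQLFTest, two-sided, Benjamini-Hochberg adjustment over all genes tested, threshold 0.05), and every adjusted p and SE given is from this fit unless another tool is named. CPM use the TMM factors of all 9 libraries, and FPKM divide them by summed exon length. The test was checked on simulated counts. The study itself used edgeR's exactTest, one of the alternatives, which also took in DESeq2 1.42.0, limma 3.58.1 with quality weights, other scalings and filters, a replicate block and leaving out each library. Per-library values are given for every collagen with an adjusted p below 0.05 in either comparison and for the 5 with the highest wildtype FPKM; of partner lists, called genes are named, at most 5 of each, and 1 called gene of the mesenchyme list is not reported here. The members and lists were chosen with earlier results of these data known. Labels and methods name different RNA extraction kits.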

Additional observations from a re-analysis of the deposited data

Results flagged for a closer look

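Among the 5 wildtype libraries, 1 value lay far from the other 4 for 6 of the 11 collagens whose values are given per library, each time in wildtype replicate 5 and each time as the highest. The gap to the next library, as a share of the whole range of log2 CPM, was 0.824 for *Col1a1*, 0.881 for *Col1a2*, 0.817 for *Col3a1*, 0.961 for *Col5a1*, 0.957 for *Col6a1* and 0.754 for *Col12a1*, each above the Dixon critical value of 0.710. Chance alone passes that value in about 1 of 20 groups. In that library *Col1a1* stood at 6600.2 CPM and *Col12a1* at 477 CPM. *Col2a1*, *Col9a1*, *Col9a2*, *Col9a3* and *Col18a1* were not marked in this way in either genotype. The same library held 9867 CPM of skeletal muscle genes, and what part of its collagen counts came with them was not tested.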

How the results depend on the processing

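The direction of most collagen fold changes, though not those of *Col2a1* and *Col9a3*, rested on wildtype replicate 5. With all 9 libraries, leaving out 1 library at a time gave 527 to 1207 called genes and 1 to 7 called collagens, the 7 being without wildtype replicate 5, where the log2 fold change reversed to 2.73 for *Col1a1*, 2.52 for *Col1a2*, 2.65 for *Col3a1*, 0.40 for *Col5a1*, 1.58 for *Col6a1* and 4.78 for *Col12a1* (lowest values over the leave-outs -3.74, -3.32, -2.92, -1.16, -2.66 and -2.04). limma with quality weights, which gave that library a weight of 0.441, also reversed them, to 1.98, 1.90, 2.13, 0.19, 1.05 and 4.43. Of these it called *Col12a1* alone, and 3 collagens in all with *Col2a1* and *Col9a3*. A replicate block, which takes the number of wildtype replicate 5 as a block of its own, gave 2.78, 2.44, 2.61, 0.38, 1.46 and 4.58 and called 9 collagens and 852 genes. Without wildtype replicate 5 the same-numbered libraries did not deviate together (correlations -0.0712, -0.0133, -0.0193 and -0.0732), so the numbers were not taken to pair the samples, and the block called 7 collagens and 873 genes. Since the order within wildtype is uncertain, this check cannot show that the samples are unpaired.

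With all 9 libraries edgeR's exactTest, which the study used, called 1066 genes and 3 collagens, *Col6a6* being lower besides *Col2a1* and *Col9a3*. DESeq2 called 1438 genes and 2 collagens, and limma with quality weights 1548 genes and 3 collagens. Testing without a filter called 1067 genes and 5 collagens, 3 of them lower. DESeq2 gave no adjusted p for 20 of the 38 with all 9 libraries. Without wildtype replicate 5, the main fit called 7 collagens and 1207 genes. There edgeR's exactTest called 11 collagens and 1560 genes, DESeq2 12 and 1745, and library size alone 13 and 1657. No filter called 11 collagens and 1713 genes, and limma with quality weights 12 and 1809. All these collagens were higher, but calls over all genes rose as well. DESeq2 and no filter took in 38 collagens and the others 30. Leaving out 1 further library gave 6 to 10 collagens and 795 (without wildtype replicate 1) to 1820 (without *Atf4* null replicate 4) genes, and the cause was not tested. *Col1a1*, *Col1a2*, *Col2a1*, *Col3a1*, *Col9a3* and *Col12a1* were called under every alternative in which they were tested without wildtype replicate 5, and *Col6a1* in 9 of 17. Library size alone moved the median log2 fold change of all genes to 0.125 with all 9 libraries and 0.184 without wildtype replicate 5, and the higher share of calls from 37.8% to 64.3% and from 40.4% to 68.7%. The *Col12a1* value rests on 1 to 15 counts in each of these wildtype libraries, and the gene was not tested under the filter of at least 10 counts in every library.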
